A study of Mus musculus with 6 samples.

Results

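The genes described are 10 transcription factors and cofactors of blood formation in the yolk sac, Gata1, Gata2, Tal1, Lmo2, Klf1, Runx1, Gfi1b, Myb, Nfe2 and Zfpm1. They were taken by symbol from a table of raw read counts, where each of the 10 symbols matched 1 of 25239 rows. Messenger RNA was sequenced from mouse yolk sacs at embryonic day 9.5 in 6 libraries. The 3 wild-type (WT) libraries came from CD1 embryos that received no treatment. The 3 libraries labelled DKO, called DKO1, DKO2 and DKO3 after their labels, came from embryos of mixed background with the genotype Cdx1-/- Cdx2 fl/fl, carrying Actin::CreERT, a Cre recombinase that tamoxifen activates and an actin promoter drives. Those embryos received tamoxifen at embryonic day 5.5, so genotype, strain and tamoxifen differ together and their parts cannot be told apart. The labels do not say whether a library is 1 yolk sac or a pool, though every library held RNA of both sexes, as shown beside Gata1 below. The p-values reflect the spread of these 6 samples, which may be technical.

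The unit of level is CPM, counts scaled to a library total of 1000000, and totals ran from 20040601 to 56732836 counts, with DKO3 the deepest. Cdx2, the gene meant to be deleted, had WT levels of 16.7, 18.9 and 20.5 CPM, and levels of 23.4, 24 and 25.1 CPM in the libraries labelled DKO. Its log2 fold change was 0.38 (SE 0.12, adjusted p 0.449 by edgeR), and limma-voom with library quality weights called it higher there (0.4, adjusted p 0.0256). Cdx1 had 0, 1 and 8 counts in WT1, WT2 and WT3 and 10, 14 and 14 in DKO1, DKO2 and DKO3, too few to be tested. Neither gene was thus lower in the libraries labelled DKO, the counts span whole genes, and every direction below rests on the labels. DKO3 stood apart, with correlations of log2 CPM of 0.937 to 0.949 with the WT libraries, against 0.971 to 0.981 for DKO1 and DKO2. WT libraries correlated with each other at 0.989 to 0.99. These correlations run across genes, which are not independent replicates. Markers of endoderm, vessels and red cells were present in every library. The endoderm carrier Afp lay between 2260 and 30400 CPM, the vessel cadherin Cdh5 between 93.4 and 157 CPM and the alpha-like globin Hba-x between 802 and 4380 CPM.

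In the mouse the yolk sac makes the first blood in overlapping waves, a primitive wave of large nucleated red cells followed by erythro-myeloid progenitors that bud from endothelium. Gata2, Tal1, Lmo2 and Runx1 act in blood-forming endothelium and progenitors. Gata1, its cofactor Zfpm1 (FOG1), Klf1, Gfi1b and Nfe2 then drive red cell and megakaryocyte maturation. Gata1 and Gata2 recognise the same core letters, and exchange of Gata2 for Gata1 at shared sites, the GATA switch, accompanies red cell maturation. Tal1 and Lmo2 sit with GATA factors in one DNA-bound complex. Myb serves definitive progenitors and is dispensable for primitive red cells.

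Promoter letters are shown for 4 of the genes: for Gata1 and Klf1, which were lowest of the 10 against WT in DKO3, for Gata2, which was not, and for Gfi1b, whose upstream region holds both motifs marked. Each line gives bases before a RefSeq start site on the gene's strand, in GRCm38.p6, 250 bases or, for Klf1, the 196 that precede the first exon annotated by GENCODE vM21, a line that ends 54 bases before the RefSeq start site. Capitals mark the GATA motif AGATAA or TGATAA and the CACCC-type motif of KLF factors, CCNCNCCC, searched on both strands, with overlapping matches of the same motif allowed. Matches are counted from -1 at the base before the start site, by their first base on the printed strand.
Gata1, chrX:7967911-7968160, minus strand: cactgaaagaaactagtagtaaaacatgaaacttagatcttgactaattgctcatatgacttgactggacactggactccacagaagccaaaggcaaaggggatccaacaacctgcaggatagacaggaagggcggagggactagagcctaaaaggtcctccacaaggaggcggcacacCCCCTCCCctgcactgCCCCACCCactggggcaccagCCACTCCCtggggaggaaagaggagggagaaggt
Klf1, chr8:84901732-84901927, plus strand: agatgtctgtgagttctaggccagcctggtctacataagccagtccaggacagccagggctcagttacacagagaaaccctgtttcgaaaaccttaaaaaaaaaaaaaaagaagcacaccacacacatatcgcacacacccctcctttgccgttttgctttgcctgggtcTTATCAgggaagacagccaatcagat
Gata2, chr6:88193641-88193890, plus strand: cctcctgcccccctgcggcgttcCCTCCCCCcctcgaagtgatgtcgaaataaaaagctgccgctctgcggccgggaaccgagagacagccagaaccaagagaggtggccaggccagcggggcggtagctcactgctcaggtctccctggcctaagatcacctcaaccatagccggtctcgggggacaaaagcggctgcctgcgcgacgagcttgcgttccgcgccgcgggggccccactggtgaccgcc
Gfi1b, chr2:28621983-28622232, minus strand: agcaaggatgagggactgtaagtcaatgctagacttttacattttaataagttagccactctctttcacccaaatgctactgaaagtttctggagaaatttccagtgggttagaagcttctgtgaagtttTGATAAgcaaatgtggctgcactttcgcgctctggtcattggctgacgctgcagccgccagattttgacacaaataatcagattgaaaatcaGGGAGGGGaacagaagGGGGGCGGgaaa

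Gata1 held the KLF motif at -71, -55 and -34 and no GATA motif in this window. Klf1 held 1 GATA motif, at -80 from the RefSeq start site on the opposite strand, and Gfi1b held a GATA motif at -120 and KLF motifs at -28 and -12. Of the 10 genes, 8 matched the promoter table, with 11 start sites. The GATA motif was found before 3 of these 11 sites, those of Klf1, Gfi1b and the upstream site of Tal1, and before 16.6% of all 32851 promoters in the table over the same 250 bases. The KLF motif was found before 9 of the 11 and before 45.9% of all promoters. The E-box CAGNTG, of the kind bound by Tal1, was found before 2 of the 11 and before 44.8% of all promoters. The RUNX motif TGTGGT or TGCGGT was found before 1 of the 11 and before 18.6% of all promoters. A match describes letters and not a bound site.

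In WT yolk sac the levels of these factors spanned a wide range. Per kilobase of merged exons, Zfpm1 was highest at 41 ± 5.12 CPM per kilobase (SD, n = 3), followed by Klf1 at 31.3 ± 4.17, Tal1 at 19.5 ± 2.61 and Gata1 at 14.1 ± 2.32. Lmo2 stood at 10.5 ± 1.72, Nfe2 at 9.37 ± 2.3 and Gfi1b at 8.3 ± 1.28 CPM per kilobase. Gata2 followed at 2 ± 0.575, Runx1 at 1.34 ± 0.165 and Myb at 0.264 ± 0.0497 CPM per kilobase. Zfpm1 and Klf1 thus headed the order and Gata2, Runx1 and Myb closed it, with Tal1 and Lmo2 among the red cell factors. The ranges over the 3 WT libraries overlapped between the neighbours Gata1 and Lmo2, Lmo2 and Nfe2, and Nfe2 and Gfi1b, and not between the other neighbours. Merged exons include every annotated isoform, 12025 bases for Runx1 and 8933 for Myb, and understate a gene whose shorter isoforms prevail. In DKO3 the order differed: Zfpm1 led at 5.56 CPM per kilobase, Klf1 at 2.44 stood behind Tal1 at 2.67 and Lmo2 at 2.66, and Gata1 at 1.39 was level with Gata2 at 1.38.

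**Figure D1:**
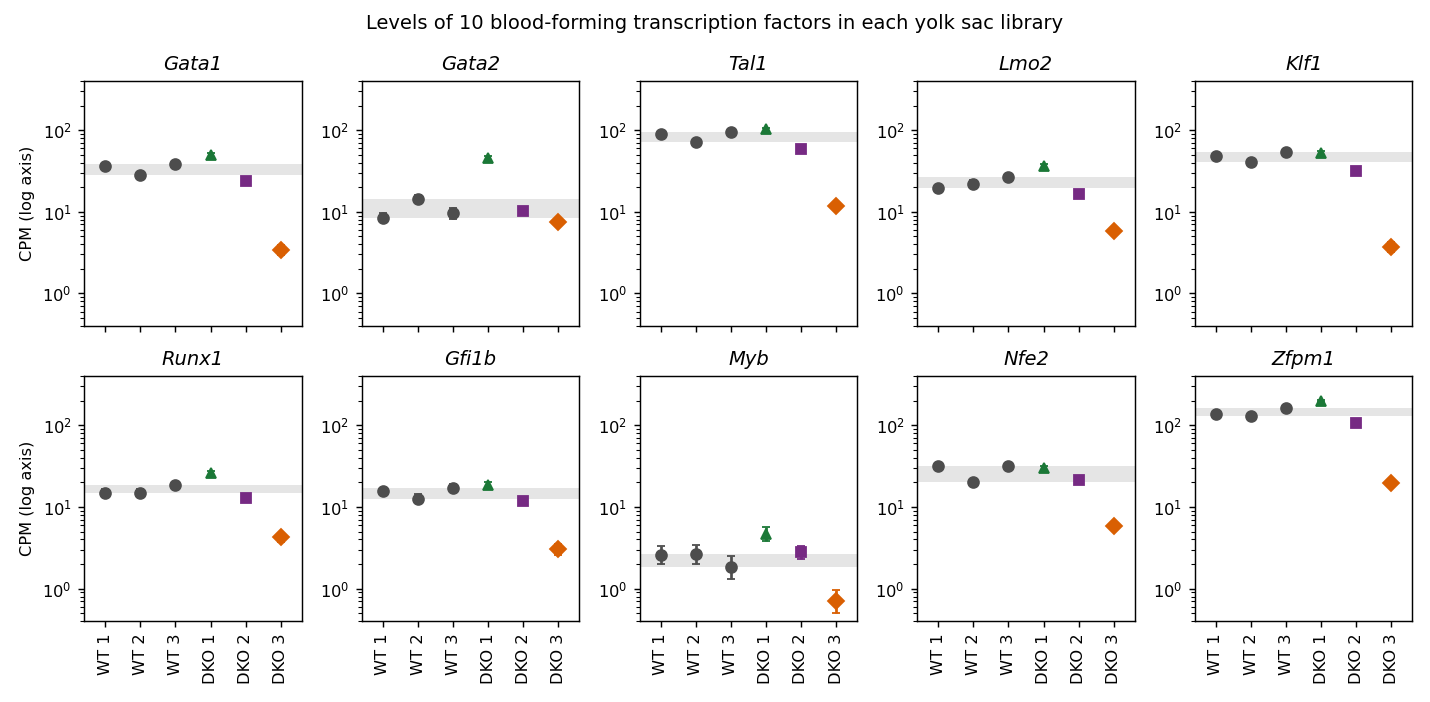
Level of each transcription factor gene in CPM (log axis) in the 3 WT libraries (grey circles) and libraries DKO1 (triangle), DKO2 (square) and DKO3 (diamond); each bar is a 95% Poisson interval, for counting error alone, and the grey band spans the WT libraries. All 10 genes are lowest in DKO3, and Gata2 stands apart in DKO1 at 45.9 CPM.

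The 3 libraries labelled DKO did not move together, and none of the 10 genes differed between the groups past the threshold. In DKO3 all 10 genes lay below every WT library, as did 43.6% of all 14002 genes tested, and 0 lay above, where 38.4% of genes did. In DKO1 8 of the 10 lay above every WT library, against 37.1% of all genes, and none lay below. In DKO2 7 of the 10 lay below every WT library, against 35.4% of all genes, and 1, Myb, lay above. In none of the 10 genes were the groups separate, where they were separate in 15.6% of genes tested, 7.96% with the libraries labelled DKO higher and 7.59% with them lower. Fewer blood cells and less RNA per blood cell cannot be told apart in whole tissue.

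By edgeR, 0 of the 10 passed an adjusted p of 0.05, and 0.0357% of all genes tested did, 5 of 14002, with 0.0143% higher and 0.0214% lower. None of the 10 had an unadjusted p under 0.05, where 9.09% of genes did, 5.55% higher and 3.54% lower. DESeq2 called 0 of the 10 and 2.06% of genes, and limma-voom with library quality weights called 0 of the 10 and 19% of genes. Without the library labelled DKO1, edgeR called 0 of the 10 and 4.42% of genes. The 10 genes had a median log2 fold change, DKO minus WT, of -0.42, against 0.01 over all genes tested, with 8 negative and 2 positive. That median was -1.02 without DKO1 and 0.08 without DKO3.

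Gata1, the master factor of red cells and megakaryocytes (chromosome X, 7959260 to 7978071 in GRCm38), stood at 35.9, 28 and 39 CPM in WT1, WT2 and WT3. In DKO1, DKO2 and DKO3 it stood at 50.2, 23.9 and 3.38 CPM. DKO1 lay above every WT library and DKO2 and DKO3 below, with DKO3, from 192 counts, 9.58-fold below the WT mean on the log2 scale used for the fit. The log2 fold change was -0.42 (SE 0.78, 95% interval -2.31 to 1.46, adjusted p 0.859 by edgeR), and without DKO3 it was 0.09. As Gata1 is X-linked, a Y-linked gene is given beside it: the helicase gene Ddx3y stood at 36.1 to 60.2 CPM across the WT replicates, compared with 33.2, 29 and 23.4 CPM for DKO1, DKO2 and DKO3. The part of the sex of the embryos in the Gata1 values was not tested.

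Zfpm1 encodes FOG1, the zinc finger cofactor that binds Gata1 (chromosome 8, 122282141 to 122337251). It stood at 136, 130 and 164 CPM across the WT replicates, compared with 197, 108 and 19.5 CPM for DKO1, DKO2 and DKO3. Its pattern was that of Gata1, above the WT range in DKO1, below it in DKO2 and 7.1-fold below the WT mean in DKO3. Between groups the log2 fold change was -0.42 (SE 0.69, interval -2.07 to 1.23, adjusted p 0.84 by edgeR), and without DKO3 it was 0.07.

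Gata2, the GATA factor of progenitors and blood-forming endothelium (chromosome 6, 88193891 to 88207032), had a pattern of its own. It stood at 8.49, 14.3 and 9.58 CPM across the WT replicates, compared with 45.9, 10.2 and 7.44 CPM for DKO1, DKO2 and DKO3. DKO1 alone stood out, 4.28-fold above the WT mean, DKO2 lay inside the WT range, and DKO3 was only 1.37-fold below the WT mean. In DKO1 0.614% of genes tested had a difference from WT as high or higher. The fitted log2 fold change was 0.96 (SE 0.69, interval -0.69 to 2.61, adjusted p 0.684 by edgeR), and it was -0.27 without DKO1.

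Tal1, the basic helix-loop-helix factor needed for all blood (chromosome 4, 115056426 to 115071755), stood at 89.9, 72.2 and 93.8 CPM across the WT replicates, compared with 102, 59.6 and 11.7 CPM for DKO1, DKO2 and DKO3. The library order was that of Gata1, with DKO1 just above the WT range and DKO3 6.99-fold below the WT mean. Its log2 fold change was -0.57 (SE 0.65, interval -2.14 to 0.99, adjusted p 0.775 by edgeR), and without DKO3 it was -0.09. Lmo2, the LIM-domain bridge between Tal1 and GATA factors (chromosome 2, 103957986 to 103981878), stood at 19.3, 22.2 and 26.5 CPM across the WT replicates, compared with 36.5, 16.6 and 5.76 CPM for DKO1, DKO2 and DKO3. Its gap in DKO3 was smaller, 3.75-fold below the WT mean. The log2 fold change of Lmo2 was -0.22 (SE 0.58, interval -1.61 to 1.17, adjusted p 0.899 by edgeR), and without DKO3 it was 0.21. The ratio of Tal1 to Lmo2 counts was 4.67, 3.26 and 3.53 across the WT replicates, compared with 2.79, 3.59 and 2.03 for DKO1, DKO2 and DKO3, so DKO1 and DKO3 lay below the WT values although their levels of both genes differed widely.

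Klf1, the CACCC-binding factor of globin and red cell membrane genes (chromosome 8, 84901928 to 84905291), had the largest gap of the 10 in DKO3. It stood at 48.5, 41.2 and 53.9 CPM across the WT replicates, compared with 52, 31.7 and 3.74 CPM for DKO1, DKO2 and DKO3, with DKO1 inside the WT range. DKO3 was 12.2-fold below the WT mean, and 22 of 14002 genes, Klf1 among them, had a difference there as low or lower. The log2 fold change was -0.73 (SE 0.77, interval -2.57 to 1.12, adjusted p 0.763 by edgeR), and without DKO3 it was -0.21.

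Gfi1b, a repressor needed for red cell and megakaryocyte differentiation (chromosome 2, 28609450 to 28621982), stood at 15.6, 12.7 and 17.3 CPM across the WT replicates, compared with 18.4, 12 and 3.05 CPM for DKO1, DKO2 and DKO3. Nfe2, the p45 subunit of a globin and platelet gene activator (chromosome 15, 103248212 to 103258403), stood at 31.9, 20.1 and 31.9 CPM across the WT replicates, compared with 29.9, 21.4 and 5.78 CPM for DKO1, DKO2 and DKO3. For Nfe2 DKO1 and DKO2 both lay inside the WT range, and only DKO3 lay outside it. In DKO3 both genes were less far below the WT mean than Gata1 or Klf1, Gfi1b by 4.72-fold and Nfe2 by 4.55-fold. The log2 fold changes were -0.46 for Gfi1b (SE 0.56, interval -1.82 to 0.9, adjusted p 0.793 by edgeR) and -0.56 for Nfe2 (SE 0.54, interval -1.86 to 0.74, adjusted p 0.741 by edgeR). Without DKO3 they were -0.02 and -0.14.

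Runx1 is the factor of the endothelial to blood transition (chromosome 16, 92601466 to 92826149). It stood at 15, 14.9 and 18.4 CPM across the WT replicates, compared with 25.8, 12.8 and 4.25 CPM for DKO1, DKO2 and DKO3. DKO1 lay above the WT range and DKO3 was 3.62-fold below the WT mean. Between groups the log2 fold change was -0.18 (SE 0.56, interval -1.54 to 1.17, adjusted p 0.912 by edgeR), and without DKO3 it was 0.24. Myb, a marker of definitive progenitors (chromosome 10, 21124935 to 21160984), was the scarcest of the 10, at 2.61, 2.63 and 1.85 CPM across the WT replicates, compared with 4.7, 2.79 and 0.705 CPM for DKO1, DKO2 and DKO3. These values rest on 37 to 114 counts per library. DKO2 was just above the WT range, within the Poisson intervals of those counts, and DKO3, with 40 counts, was 3.03-fold below the WT mean. The log2 fold change of Myb was 0.19 (SE 0.62, interval -1.3 to 1.68, adjusted p 0.919 by edgeR), and without DKO1 it was -0.44. Antisense genes overlap 559 exon bases of Myb and 106 of Runx1, and since the strand setting of the counting is not given, their reads cannot be told apart.

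**Figure D2:**
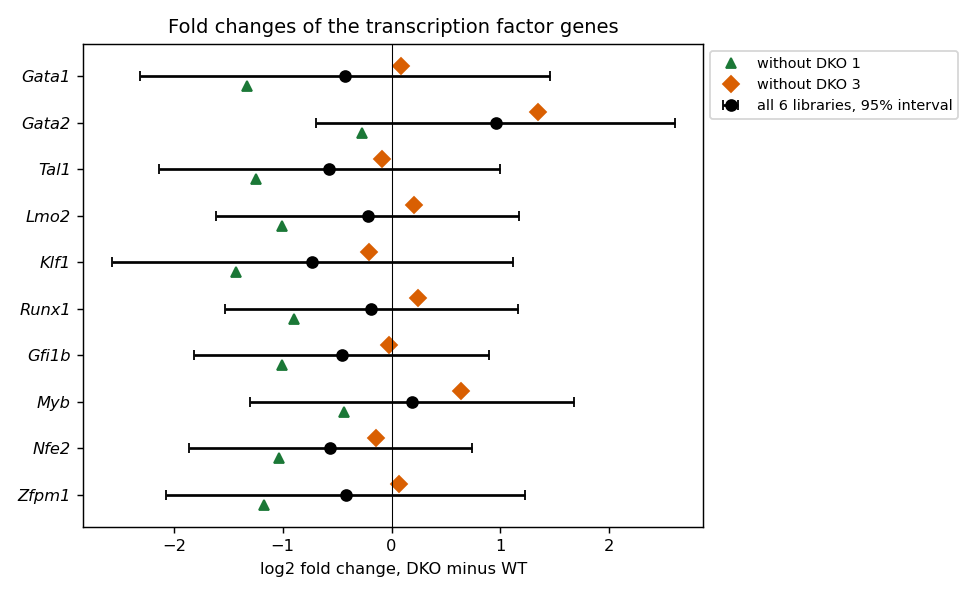
Log2 fold change, DKO minus WT, of each gene with all 6 libraries (black circle, bar the 95% interval from the edgeR fit) and without DKO1 (triangle) or DKO3 (diamond). Every interval spans 0, and the points without DKO1 lie to the left of those without DKO3 in all 10 genes.

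The balance between the GATA factors differed between libraries. The ratio of Gata1 to Gata2 counts was 4.23, 1.95 and 4.07 across the WT replicates, compared with 1.09, 2.36 and 0.455 for DKO1, DKO2 and DKO3. DKO1 and DKO3 thus lay below every WT library by different routes, DKO1 with Gata2 at 45.9 CPM and DKO3 with Gata1 at 3.38 CPM. The ratio of Runx1 to Gata1 counts was 0.418, 0.533 and 0.472 across the WT replicates, compared with 0.514, 0.537 and 1.26 for DKO1, DKO2 and DKO3. Among the red cell factors the ratios differed in how far they ranged. Klf1 to Gata1 counts stood at 1.35, 1.47 and 1.38 across the WT replicates, compared with 1.04, 1.33 and 1.1 for DKO1, DKO2 and DKO3. Nfe2 to Gata1 counts stood at 0.889, 0.718 and 0.818 across the WT replicates, compared with 0.597, 0.895 and 1.71 for DKO1, DKO2 and DKO3. Gfi1b to Gata1 counts stood at 0.434, 0.453 and 0.444 across the WT replicates, compared with 0.366, 0.501 and 0.901 for DKO1, DKO2 and DKO3. Zfpm1 to Gata1 counts stood at 3.8, 4.67 and 4.21 across the WT replicates, compared with 3.92, 4.5 and 5.76 for DKO1, DKO2 and DKO3. For Tal1 to Gata1 counts the values were 2.5, 2.58 and 2.41 in WT and 2.03, 2.49 and 3.46 in DKO1, DKO2 and DKO3. Relative to Gata1, the genes Nfe2, Gfi1b, Runx1, Zfpm1, Tal1 and Gata2 were thus all highest in DKO3, where Gata1 stood at 3.38 CPM. By their counts, so were Lmo2 and Myb. Klf1 alone was not, and only Klf1 lay farther below its WT mean there than Gata1 did.

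The levels were also set against a red cell product, the embryonic alpha-like globin Hba-x, whose own level was 4380, 2980 and 4290 CPM across the WT replicates, compared with 3220, 3460 and 802 CPM for DKO1, DKO2 and DKO3. Per 1000 Hba-x counts, Gata1 had 8.19, 9.38 and 9.07 counts across the WT replicates, compared with 15.6, 6.91 and 4.22 for DKO1, DKO2 and DKO3. Klf1 had 11.1, 13.8 and 12.5 counts per 1000 of Hba-x across the WT replicates, compared with 16.1, 9.17 and 4.66 for DKO1, DKO2 and DKO3. On this scale all 10 genes lay above the WT range in DKO1 and 6 lay below it in DKO2. In DKO3 the genes parted: Gata1, Tal1, Klf1 and Zfpm1 lay below the WT range, Lmo2, Gfi1b, Myb and Nfe2 lay inside it, and Gata2 and Runx1 lay above it. Hba-x itself was at 802 CPM in DKO3 against 2980 to 4380 CPM in WT, which raises every gene there on this scale. The share of all genes outside the WT range on this scale was not computed. Nfe2, for example, had 7.28, 6.73 and 7.42 counts per 1000 of Hba-x in WT and 7.21 in DKO3, whereas Gata2 had 1.94, 4.8 and 2.23 in WT and 9.27 in DKO3.

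**Figure D3:**
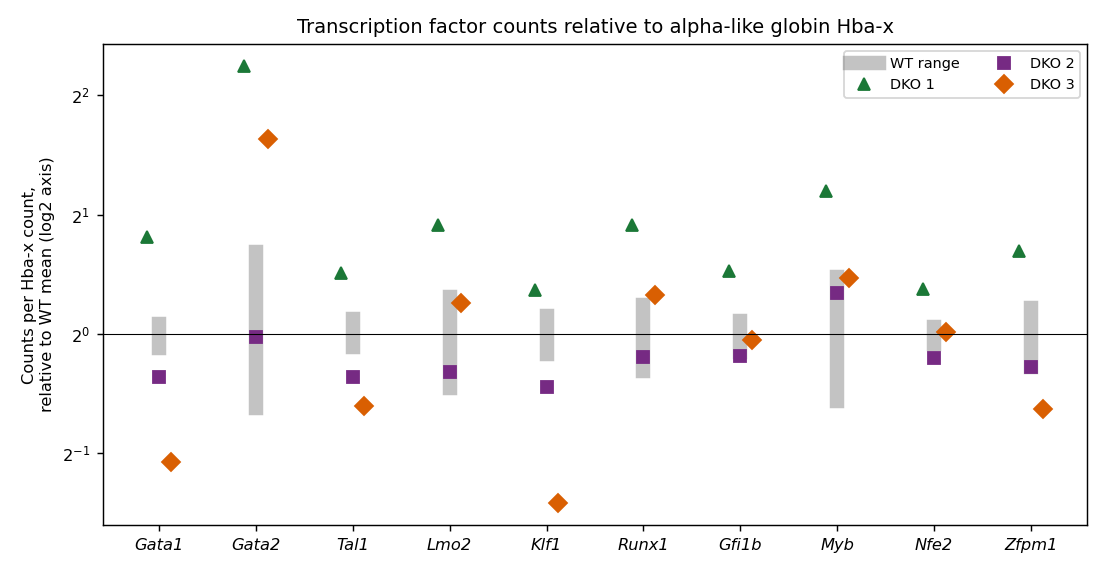
Counts of each gene per count of the alpha-like globin Hba-x, divided by the WT mean (log2 axis); grey bars span the WT libraries and symbols are libraries DKO1 (triangle), DKO2 (square) and DKO3 (diamond). DKO1 lies above the WT range in all 10 genes, while in DKO3 Gata1, Tal1, Klf1 and Zfpm1 lie below it and Gata2 and Runx1 above it. Hba-x was itself lowest in DKO3, which raises every gene there on this scale.

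The embryonic beta-like globins, which change order as primitive red cells mature, also differed between libraries. The ratio of counts of Hbb-bh1, the earlier of the pair, to Hbb-y was 1.34, 1.97 and 1.83 across the WT replicates, compared with 5.4, 1.1 and 0.521 for DKO1, DKO2 and DKO3. Lin28b, which restrains let-7 microRNAs, stood at 23.1 to 31.2 CPM across the WT replicates, compared with 45.3, 15.2 and 2.94 CPM for DKO1, DKO2 and DKO3. DKO1 was thus above, DKO2 below and DKO3 farthest below WT for Lin28b, the same order as for Gata1. Whether the libraries differ in stage was not tested.

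Partners of the factors in their complexes showed smaller gaps. Of 20 partner genes, 0 passed edgeR in either direction, with a median log2 fold change of -0.08 against 0.01 over all genes tested. At an unadjusted p of 0.05, 2 were higher and 1 lower, and DESeq2 called 1 and limma-voom 3 of them. In DKO3 their median difference from WT was -0.3, where that of the 10 factors was -2.21. Lyl1, a Tal1 paralog, stood at 16.9 to 24.3 CPM in WT and 4.88 CPM in DKO3, and Cbfa2t3, the ETO2 corepressor of the Tal1 complex, at 22.9 to 26.6 CPM in WT and 7.07 CPM in DKO3. The gaps of broadly expressed partners were smaller there, with the Lmo2-binding adaptor Ldb1 at 68.1 to 78.6 CPM in WT and 40.5 CPM in DKO3. The chromatin remodeller Chd4 stood at 641 to 679 CPM in WT and 565 CPM in DKO3.

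Of 30 other blood transcription factors 26 were tested, 0 passed in either direction and the median log2 fold change was 0. At an unadjusted p of 0.05, 1 was higher and 3 lower, and DESeq2 called 1 and limma-voom 3. Ikzf1, the lymphoid and red cell factor Ikaros, stood at 30.6 to 42.7 CPM across the WT replicates, compared with 40.5, 26.6 and 2.93 CPM for DKO1, DKO2 and DKO3. The myeloid factors lay on the other side in DKO3: Cebpa was at 32.1 CPM there against 2.53 to 4.02 CPM in WT, and Irf8 at 9.48 CPM against 2.19 to 3.35 CPM. Of 33 red cell targets of Gata1 and Klf1, 32 were tested, 0 passed in either direction, and 30 were negative, with a median log2 fold change of -0.53. None reached an unadjusted p of 0.05, and DESeq2 and limma-voom called 0. Against WT they differed by a median of -0.09, -0.18 and -1.96 in DKO1, DKO2 and DKO3. Epor, the erythropoietin receptor, stood at 24.1 to 31.5 CPM in WT and 7.02 CPM in DKO3. In DKO1 the targets and the factors parted, since the factors had a median difference of 0.49 there, the globin Hbb-y stood at 686 CPM against 1760 to 3610 CPM in WT, and the anion exchanger Slc4a1 at 253 CPM against 325 to 485 CPM in WT. The lists and the factors were chosen with earlier results of these libraries known.

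**Figure D4:**
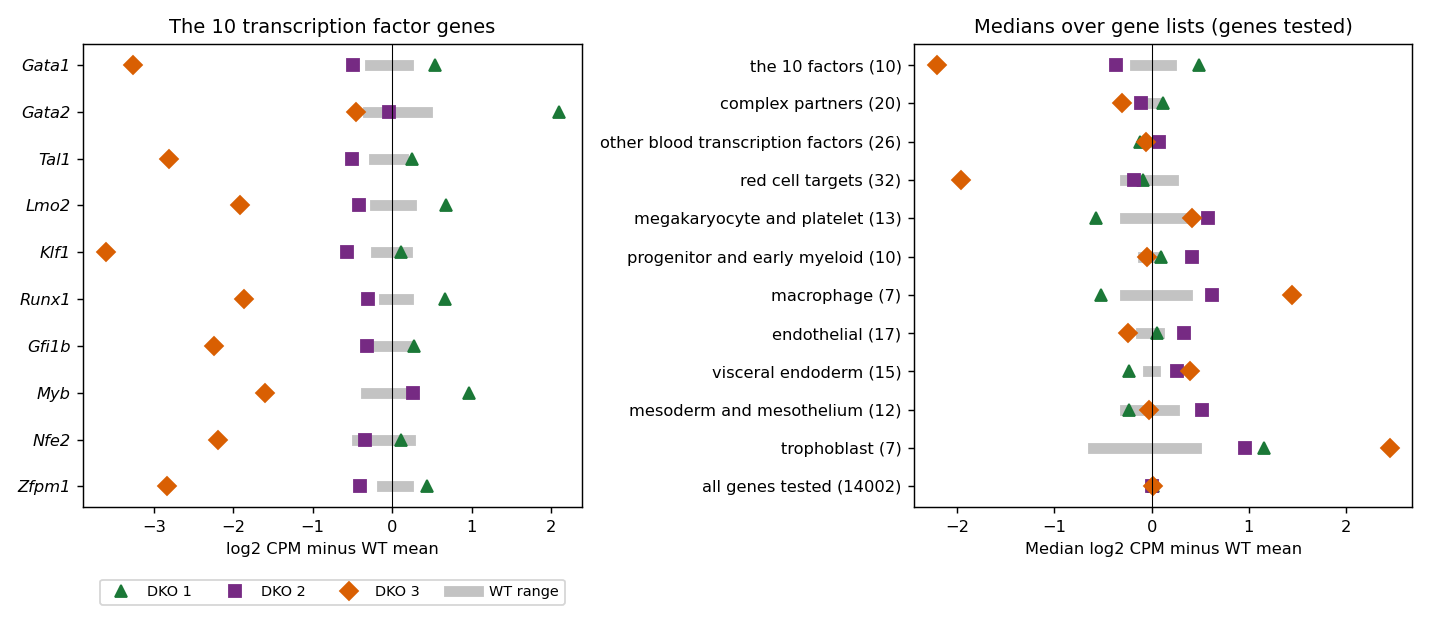
Left, difference of each gene from the WT mean (log2 CPM) in libraries DKO1 (triangle), DKO2 (square) and DKO3 (diamond), with grey bars for the range of the WT libraries. Right, the median of that difference over the genes tested in each list, their number in brackets; the 10 factors and the red cell targets have medians of -2.21 and -1.96 in DKO3, while all genes tested have 0.01.

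Markers of other cells that carry these factors were read beside them. Endothelium, which also expresses Tal1, Lmo2, Gata2 and Runx1, had a summed level over 17 markers of 886 to 996 CPM across the WT replicates, compared with 974, 1130 and 791 CPM for DKO1, DKO2 and DKO3, with 0 markers at 0 counts throughout. The median difference of the endothelial markers in DKO3 was -0.24. Megakaryocytes, which share Gata1, Zfpm1, Gfi1b and Nfe2 with red cells, had a summed level over 16 markers of 123 to 167 CPM across the WT replicates, compared with 139, 162 and 142 CPM for DKO1, DKO2 and DKO3. The median difference of the 13 megakaryocyte genes tested from the WT mean was -0.57, 0.58 and 0.41 in DKO1, DKO2 and DKO3. In WT1, WT2 and WT3 it was 0.39, -0.27 and -0.19, so DKO3 lay at the upper edge of the WT range. Of the 13, 8 had a positive and 5 a negative log2 fold change. The 3 most abundant were not among the higher ones in DKO3. The integrin gene Itgb3 stood at 46.6 to 58.1 CPM in WT and 30.7 CPM in DKO3, Plek at 16.8 to 30.4 and 16 CPM, and the integrin gene Itga2b at 25.7 to 29.5 and 26.5 CPM. Tubb1, the platelet beta-tubulin and a target of Nfe2, stood at 7.26 to 9.76 CPM across the WT replicates, compared with 14, 20.9 and 27 CPM for DKO1, DKO2 and DKO3 (log2 fold change 1.24, SE 0.28, adjusted p 0.312 by edgeR). DESeq2 called it, with an adjusted p of 0.00521, as did limma-voom with library quality weights, with 0.00493, and edgeR without DKO1, with 0.0313. By edgeR with all 6 libraries, 0 of the 13 passed in either direction. Tubb1 was the only 1 of them that DESeq2 or limma-voom called, where they called 2.06% and 19% of all genes.

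Progenitor and early myeloid genes had 0 of 10 tested past the threshold and a median log2 fold change of 0.12. None reached an unadjusted p of 0.05, DESeq2 called 0 and limma-voom called 2. Kit, the stem cell factor receptor, stood at 10.3 to 16.4 CPM across the WT replicates, compared with 19.8, 16.3 and 9.31 CPM for DKO1, DKO2 and DKO3. Csf2rb, a cytokine receptor chain, stood at 42.4 to 70.3 CPM across the WT replicates, compared with 103, 74.2 and 6.66 CPM for DKO1, DKO2 and DKO3. Macrophage markers had a summed level over 15 genes of 81.7 to 109 CPM across the WT replicates, compared with 86.7, 138 and 199 CPM for DKO1, DKO2 and DKO3, with Timd4 at 0 counts in every library and 6 of the 15 at 0 in WT2 and in DKO1. The receptor gene Csf1r stood at 2.3 to 4.92 CPM in WT and 65.3 CPM in DKO3, the largest rise in CPM of the 15. Mrc1, the most abundant on average, stood at 59.4 to 75.2 CPM in WT and 64.2 CPM in DKO3. In DKO3 6 of the 7 macrophage genes tested lay above every WT library, against 38.4% of all genes tested, and 0 lay below, where 43.6% did. By edgeR 0 of the 7 passed, while DESeq2 called 0 and limma-voom called 2. Visceral endoderm markers had a summed level over 15 genes of 31600 to 37300 CPM across the WT replicates, compared with 21700, 38800 and 58000 CPM for DKO1, DKO2 and DKO3, with 0 markers at 0 counts throughout. The high total in DKO3 was that of Afp, at 30400 CPM there. Without Afp the other 14 genes summed to 23700 to 27400 CPM in WT. In DKO1, DKO2 and DKO3 they summed to 19400, 27300 and 27600 CPM. Of the 15 genes, 11 lay above every WT library in DKO3, against 38.4% of all genes tested. The other 4, Apob, Cubn and Dab2 among them, lay below every WT library there, against 43.6% of all genes. The median difference of the 15 from WT in DKO3 was 0.39. The part of endoderm, endothelium, megakaryocytes and macrophages in these values was not tested.

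Gata2 is also expressed in trophoblast, a neighbouring tissue, as is its paralog Gata3. Summed over 12 trophoblast markers the level was 18.7 to 51.1 CPM across the WT replicates, compared with 97.5, 55.9 and 385 CPM for DKO1, DKO2 and DKO3. Ascl2 and Elf5, factors of trophoblast progenitors, stood at 11.2 and 5.2 CPM in DKO1, where Gata2 was highest, and at no more than 0.974 and 0.39 CPM in any other library, with Elf5 at 0 counts in WT1, WT3, DKO2 and DKO3. Gata3 was likewise highest in DKO1, at 6.39 CPM against 2.25 to 4.14 CPM in WT. The giant cell hormone genes Prl3d1 and Prl2c2 were instead highest in DKO3, at 54.2 and 229 CPM, where Gata2 stood at 7.44 CPM. Within WT, WT2 held the highest Gata2 and the highest Ascl2, Elf5 and Prl3d1. The part of trophoblast in the Gata2 values was not tested. The endoderm and mesoderm paralogs Gata4 and Gata6 stood at 96 to 98.7 and 33.2 to 35.3 CPM in WT, and neither passed edgeR.

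**Figure D5:**
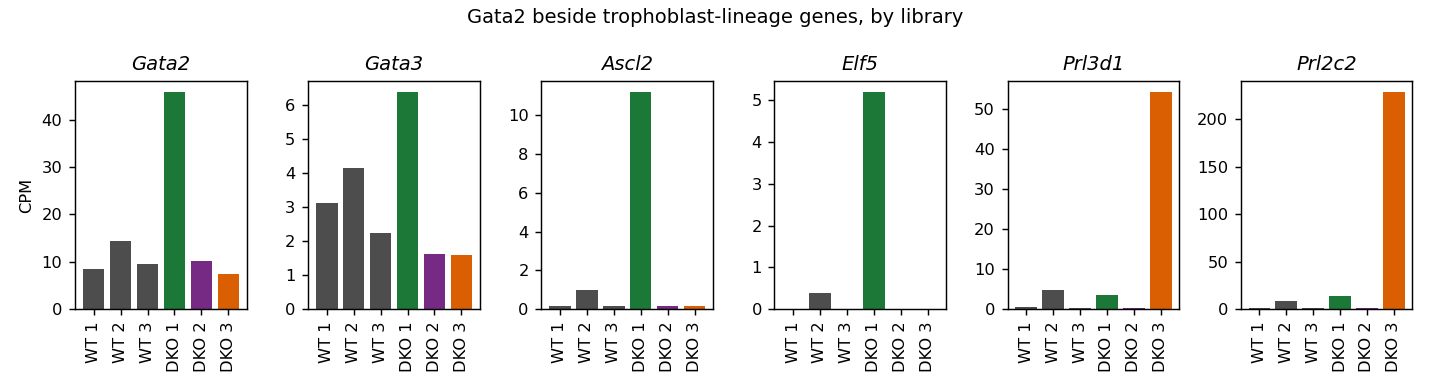
Level in CPM (linear axes from 0, each gene on its own scale) of Gata2, its paralog Gata3, the trophoblast progenitor factors Ascl2 and Elf5 and the giant cell hormone genes Prl3d1 and Prl2c2 in each library. Gata2, Gata3, Ascl2 and Elf5 are highest in DKO1, at 45.9, 6.39, 11.2 and 5.2 CPM, and the hormone genes in DKO3.

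The genes closest in pattern to each factor were found by the root mean square difference of log2 CPM over the 6 libraries, after centring each gene on its mean, among genes with a mean of at least 5 CPM. Among the 10 themselves the closest pairs were Lmo2 and Runx1, at 0.08, and Tal1 and Zfpm1, at 0.11, while Gata2 was at 0.63 or more from every other. Gata1 was closest to Art4, a blood group gene of red cells, at 0.13, then to Tmod1, a cap of red cell actin filaments, at 0.17, and to Klf1, at 0.18. Klf1 was closest to Ikzf1, at 0.13. Gfi1b had as neighbours the polyamine oxidase gene Smox, at 0.1, the heme pathway enzyme gene Blvrb, at 0.11, and Epor, at 0.12, and Nfe2 had Blvrb at 0.08. Tal1 was at 0.12 from the ion channel gene Kcnn4 and at 0.14 from the red cell ankyrin gene Ank1. Lmo2 was at 0.1 from the DNA methyltransferase gene Dnmt3b, and Myb was closest to the matrix gene Vcan, at 0.2. For Gata2 the nearest were Satb1, at 0.28, and Mns1, at 0.35. These distances describe 6 libraries of which 1, DKO3, was low for all 10 genes.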

How the data were processed

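Each deposited value is a raw count of reads assigned to a gene symbol, in 6 libraries, taken unchanged. Sequencing gave single-end reads of 50 bases, per the labels' protocols. The submitters' processing notes name mm10, SAMtools and DESeq2 but give neither versions nor roles. Per the file headers the counts came from BAM files named as subsets. The strand handling, aligner, counter and gene annotation were not given in the sources used here.

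WT and DKO were tested in edgeR 4.0.16 (R 4.3.3) by its quasi-likelihood method. TMM scaling, filterByExpr and robust shrinkage were used, and group was the only term. The fit kept 14002 of 25239 genes, all 10 factors among them, and p-values were adjusted by Benjamini-Hochberg over them with a threshold of 0.05. Fold changes are DKO minus WT, a standard error is the size of the log2 fold change divided by the root of its F statistic, and differences of single libraries use log2 CPM with TMM scaling and a prior count of 2. CPM values use plain library totals. Every library pair differed by more than sampling noise, with a chi-square per degree of freedom of 11.9 or more. Exon lengths and gene positions are from GENCODE vM21 (GRCm38) and promoters from RefSeq (GRCm38.p6). The test was tested on simulated data.

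The members and lists were chosen with earlier results of these data known. Genes were named by rule: the members, the Cdx genes, genes of each list past the threshold or else its 3 most abundant genes, the 3 nearest in pattern to each member, and globins and Lin28b. Ascl2, Cbfa2t3, Cebpa, Dab2, Elf5, Irf8, Kit, Ldb1, Prl3d1, Slc4a1, Timd4 and Tubb1 fall outside that rule and were named after their values were seen. Not every gene that the rule gives was described above. Those left out include Cd93 and Bach1, with log2 differences from the WT mean of -0.07 and 0.12 in DKO3, and Rhox6, with 1.93. Alternatives were DESeq2 1.42.0, limma 3.58.1 (voom with library quality weights), RLE scaling, other filters, robust shrinkage off, globin genes left out, a replicate block and each library left out in turn. Replicate numbers did not pair the samples.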

Additional observations from a re-analysis of the deposited data

How the results depend on the processing

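None of the 10 factors passed the threshold under any of the 14 alternatives in which it was tested; Myb was not tested under the filter of a mean of at least 5 CPM. The count over all genes was 5 by edgeR, 288 by DESeq2, 2661 by limma-voom with library quality weights (which gave DKO1 and DKO3 weights of 0.223 and 0.198), 8 without a filter on low counts, and 0 to 634 with 1 library left out. Leaving out DKO1 gave the 634. Leaving out WT2 gave the 0, with 630 genes at unadjusted p below 0.05. With a replicate block it was 1. Deviations of libraries with the same number correlated at -0.371, -0.283 and -0.189, so the numbers were not taken to pair the samples. Across the libraries left out, log2 fold changes ran from -1.33 to 0.09 for Gata1, -0.27 to 1.35 for Gata2, -1.01 to 0.21 for Lmo2, -0.9 to 0.24 for Runx1, -0.44 to 0.64 for Myb and -1.17 to 0.07 for Zfpm1. Those of Tal1, Klf1, Gfi1b and Nfe2 stayed negative. Gata2 was -0.03 with library quality weights and Myb -0.1 with the replicate block. The cause of these moves was not tested. Counting error was widest for Myb, with 37 to 114 counts a library.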
